A study of Mus musculus with 6 samples.

Results

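The phosphate, vitamin D and klotho axis was followed through 10 genes chosen by name: Slc34a1, Slc34a3, Slc20a1, Slc20a2, Cyp24a1, Cyp27b1, Vdr, Kl, Fgfr1 and Pth1r. They were found by matching Entrez gene IDs to mouse symbols, and all 10 had values among the 18822 genes measured. RNA was sequenced from renal glomeruli, the capillary tufts that filter blood, of diabetic kidney disease mice of the C57BL/6J strain. A group of 3 libraries came from mice with a PR3 knockout genotype (PR3_KO), labelled as lacking proteinase 3, the Prtn3 product, a protease that neutrophils store. A group of 3 libraries came from WT mice with the same strain and disease label, so no library came from a mouse without diabetic kidney disease. The sources used here do not say how diabetes was produced, how old the mice were or what kind of knockout allele they carried. Nothing in the labels says that the libraries of a genotype came from separate mice, so the p-values cover only how far these samples spread, and that spread may be technical.

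The kidney sets the body's phosphate by how much the proximal tubule takes back from the filtrate. Sodium-phosphate cotransporters of the Slc34 family do this at the apical membrane, and Slc20 cotransporters supply many cell types. Parathyroid hormone acts through its receptor, encoded by Pth1r. The bone hormone FGF23 acts through FGF receptors, among them the one encoded by Fgfr1, with klotho (Kl) as coreceptor. Both hormones remove Slc34 transporters from the membrane. Cyp27b1 encodes the proximal tubule enzyme that makes active vitamin D (calcitriol), Cyp24a1 encodes the enzyme that breaks it down, and Vdr encodes its nuclear receptor. Calcitriol is known to induce Cyp24a1 and to repress Cyp27b1.

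Of the genes that rose in PR3_KO, 4 had an entry in the RefSeq promoter table of GRCm38.p6, and their upstream sequences are shown. Each line gives the 250 bases before the RefSeq transcript start, 5′ to 3′ along the gene, with matches to 5 short motifs in capitals.
Slc34a1: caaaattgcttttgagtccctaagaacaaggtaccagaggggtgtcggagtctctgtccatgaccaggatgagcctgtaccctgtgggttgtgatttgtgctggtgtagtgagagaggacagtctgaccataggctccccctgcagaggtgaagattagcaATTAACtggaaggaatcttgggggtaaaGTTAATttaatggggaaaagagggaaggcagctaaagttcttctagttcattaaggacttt
Slc34a3: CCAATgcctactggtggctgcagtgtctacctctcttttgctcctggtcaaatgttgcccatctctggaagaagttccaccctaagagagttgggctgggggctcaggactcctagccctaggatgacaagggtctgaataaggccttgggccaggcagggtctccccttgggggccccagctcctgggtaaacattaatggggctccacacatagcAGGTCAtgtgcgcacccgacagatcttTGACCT
Vdr: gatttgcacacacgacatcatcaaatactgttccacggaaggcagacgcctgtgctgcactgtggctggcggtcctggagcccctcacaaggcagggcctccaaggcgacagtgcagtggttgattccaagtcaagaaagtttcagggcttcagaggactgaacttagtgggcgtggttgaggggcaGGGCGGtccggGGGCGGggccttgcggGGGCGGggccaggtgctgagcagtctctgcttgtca
Cyp27b1: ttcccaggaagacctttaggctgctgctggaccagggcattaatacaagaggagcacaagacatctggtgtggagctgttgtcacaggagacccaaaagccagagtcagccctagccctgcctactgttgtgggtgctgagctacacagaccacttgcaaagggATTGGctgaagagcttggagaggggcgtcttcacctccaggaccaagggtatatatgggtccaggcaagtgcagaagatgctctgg

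These windows lie at chr13:55399398-55399647 on the plus strand for Slc34a1, chr2:25234235-25234484 on the minus strand for Slc34a3, chr15:97908297-97908546 on the minus strand for Vdr and chr10:127047996-127048245 on the plus strand for Cyp27b1. The motifs, searched on both strands, were the nuclear receptor core AGGTCA, the HNF1 core GTTAAT, the GC box GGGCGG, the CCAAT box CCAAT and the TATA box TATAAA. Of 32851 windows of this length in the table, 14.0% held the nuclear receptor core, 6.43% the HNF1 core, 32.7% the GC box, 33.8% the CCAAT box and 12.4% the TATA box. The Slc34a3 window held the nuclear receptor core in both orientations, starting 33 and 6 bases before the RefSeq transcript start, and a CCAAT box. That start lies 36 bases inside the RefSeq gene span given below, so both matches fall within the span. The Slc34a1 window held the HNF1 core in both orientations, starting 61 and 89 bases before the RefSeq transcript start, which lies 26 bases inside the RefSeq gene span. Vdr had 3 GC boxes and Cyp27b1 had 1 CCAAT box on the opposite strand, and no motif overlapped another in these 4 windows. Windows of Slc20a1, Kl and Pth1r, which are not among the genes that rose, are not shown and held some of the same motifs. Slc20a1 held the nuclear receptor core. Slc20a1, Kl and Pth1r held the GC box, and Slc20a1 and Pth1r the CCAAT box. The HNF1 core occurred in none of them. A match describes these letters only and shows no binding. Slc20a2 and Cyp24a1, which also rose, and Fgfr1 had no entry in the table.

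The libraries summed to 494316 to 604697 FPKM (mapped fragments scaled by transcript length and library depth). The smallest steps between low values put their depth at roughly 13300000 to 15300000 fragments. The lowest level of the 10 genes, 1.46 FPKM for Cyp27b1 in WT 2, would then stand for about 52 fragments. Prtn3 was at 0.14, 0 and 0.07 FPKM in PR3_KO 1, 2 and 3, while WT 1, 2 and 3 had 0.46, 0.21 and 0.22 FPKM, too low to check the genotype labels firmly (exact two-sided permutation p = 0.1; 3 against 3 can give none smaller). All markers of podocytes, glomerular endothelium, mesangium with smooth muscle, parietal epithelium and macrophages were above 0 in every library. By limma's test (Benjamini-Hochberg adjusted p under 0.05), 5 of 10 podocyte, 10 of 10 endothelial, 5 of 8 mesangial and 8 of 8 macrophage markers fell in PR3_KO. Over all genes tested, 41.1% fell and 11.7% rose. Of 4 parietal markers 2 rose and 1 fell. Markers of the loop, distal tubule and collecting duct fell in 2 of 11 cases, and none rose. Markers of the proximal tubule, which is not part of the glomerulus, rose in 16 of 23 cases and fell in 0. Their summed level was 59685 to 77615 FPKM in PR3_KO and 12444 to 31844 FPKM in WT. WT 2 had the lowest proximal tubule level and the highest podocyte level (summed 1177 FPKM against 405 to 811 FPKM in the other libraries).

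The question put to the 10 genes was whether their levels differed between diabetic glomeruli with and without proteinase 3. All 10 passed the filter of a mean of at least 1 FPKM. The difference is given as PR3_KO minus WT on the scale of log2(FPKM + 1), which understates the change of low genes. Of the 10 genes 6 rose, 0 fell and 4 did not pass the test. Over all 12388 genes tested, 52.8% passed, with 11.7% higher and 41.1% lower. The 10 genes were chosen with earlier results of these data known, so these shares are given for description only. The median difference of the 10 genes was 0.80, against -0.26 for all genes tested and 0.82 for the 23 proximal tubule markers. With the libraries scaled by the median of their ratios, the median over all genes moved to 0.03, 47.8% of 12340 genes passed (25.6% higher and 22.2% lower), and 9 of the 10 genes rose. The libraries of the genotypes did not overlap for 7 of the 10 genes, all of them higher in PR3_KO, as was the case for 16.0% of all genes tested (49.1% were lower without overlap, 65.1% either way). The proximal tubule markers moved in the same direction as these genes, and their part in the differences was not tested except for the values relative to them given below. In bulk RNA, more cells of a type and more RNA per cell cannot be told apart.

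**Figure D1:**
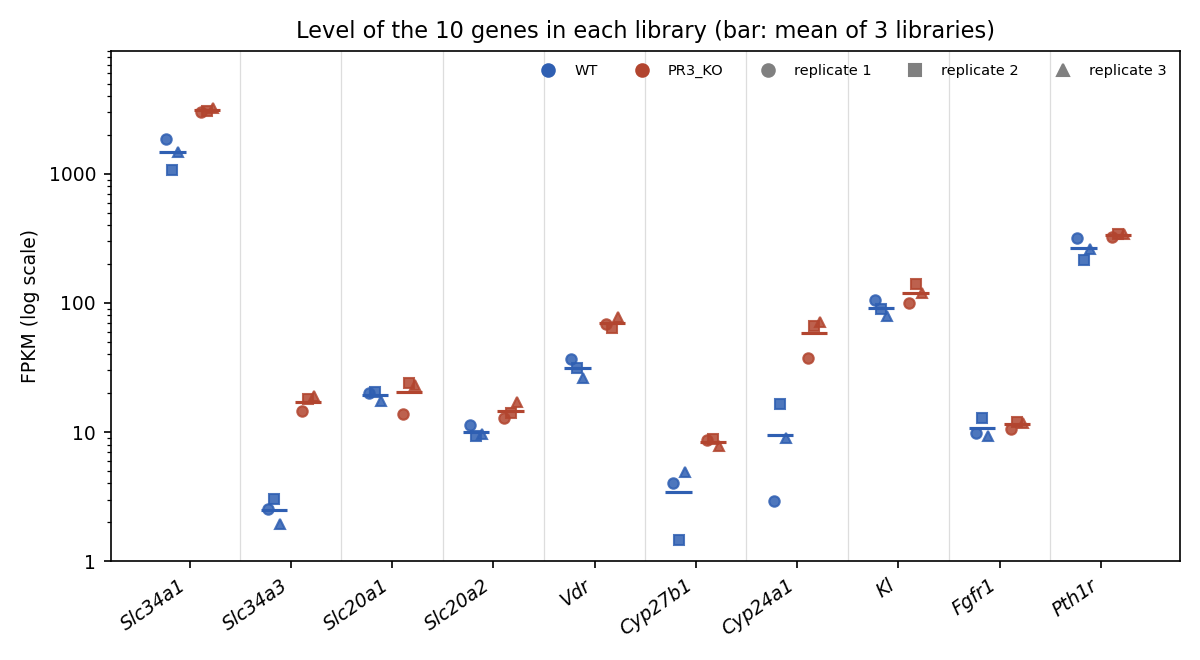
FPKM of each of the 10 genes (log axis) in each library, with WT in blue, PR3_KO in red, the marker shape giving the replicate number and the bar the mean of 3 libraries. The PR3_KO points lie above all WT points for Slc34a1, Slc34a3, Slc20a2, Vdr, Cyp27b1, Cyp24a1 and Pth1r, and overlap with WT for Slc20a1, Kl and Fgfr1.

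Slc34a1 encodes NaPi-IIa, the main phosphate cotransporter of the proximal tubule brush border, and lies on chromosome 13 from 55399622 to 55414695 (GRCm38.p6, RefSeq gene span, plus strand). Its level was 3025, 3083 and 3215 FPKM in PR3_KO 1, 2 and 3, while WT 1, 2 and 3 had 1858, 1074 and 1479.8 FPKM. Every PR3_KO library was above every WT library, and the PR3_KO libraries lay closer together. The mean rose from 1471 ± 392 to 3108 ± 97.1 FPKM (SD, n = 3 per genotype; log2 difference 1.11, SE 0.21, limma adjusted p = 0.00394). In each library Slc34a1 was at or above the 99.9th percentile of all genes.

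Slc34a3 encodes NaPi-IIc, the lower-abundance cotransporter of the same membrane, at chromosome 2, 25228897 to 25234270 (minus strand). Its level was 14.5, 18.0 and 19.1 FPKM in PR3_KO 1, 2 and 3, while WT 1, 2 and 3 had 2.53, 3.02 and 1.94 FPKM. The lowest PR3_KO library was thus far above the highest WT library. The means were 17.2 ± 2.38 and 2.50 ± 0.541 FPKM (SD, n = 3 per genotype), a 6.89-fold ratio (log2 difference 2.38, SE 0.15, limma adjusted p = 0.000598). Its difference ranked 6 among the 12388 genes tested, counted from the largest rise, and was larger than that of all 23 proximal tubule markers. Leaving out each library in turn gave differences of 2.26 to 2.49.

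Set against Slc34a1 in the same library, Slc34a3 was at 0.480%, 0.583% and 0.594% in PR3_KO 1, 2 and 3 and at 0.136%, 0.281% and 0.131% in WT 1, 2 and 3. The share was higher in every PR3_KO library, with WT 2 closest to them. The log2 ratio of the transporters, taken with 1 added to each FPKM, differed by 1.27 (exact two-sided permutation p = 0.1, adjusted p = 0.15 over the 6 gene pairs compared). Permuting 3 against 3 libraries cannot go below 0.1. All log2 ratios of gene pairs below also use FPKM + 1, while printed ratios and percentages use FPKM. The added 1 can make a difference smaller than those ratios show where a gene is low, as Slc34a3 is in WT. The difference of such a log2 ratio is that of the first gene minus that of the second, so its size is no separate result. Of the summed FPKM of Slc34a1, Slc34a2, Slc34a3, Slc20a1 and Slc20a2, Slc34a1 made up 98.2% to 98.6% in PR3_KO and 97.0% to 98.2% in WT. Slc34a2, the family member of intestine and lung, was at 0.08 to 0.54 FPKM over the 6 libraries.

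Slc20a2 encodes PiT-2, a sodium-phosphate cotransporter found in many tissues, at chromosome 8, 22476700 to 22569616 (plus strand). It was at 12.8, 14.1 and 17.0 FPKM in PR3_KO 1, 2 and 3, while WT 1, 2 and 3 had 11.4, 9.24 and 9.60 FPKM. The genotypes did not overlap, but the gap between PR3_KO 1 and WT 1 was small. The rise of 0.49 (SE 0.13, limma adjusted p = 0.0144) no longer passed without PR3_KO 3 (0.39, limma adjusted p = 0.0518) or with both WT 2 and PR3_KO 3 left out (0.33, limma adjusted p = 0.0797).

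Slc20a1, which encodes the related transporter PiT-1, maps to chromosome 2, 129198773 to 129211615 (plus strand). Its level was 13.8, 24.1 and 23.2 FPKM in PR3_KO 1, 2 and 3, while WT 1, 2 and 3 had 20.1, 20.6 and 17.5 FPKM. PR3_KO 1 was the lowest of the 6 libraries and PR3_KO 2 the highest, so the genotypes overlapped. The difference of 0.03 had a 95% interval of -0.43 to 0.49 (limma adjusted p = 0.911), and its sign depended on which library was left out. The log2 ratio of Slc20a2 to Slc20a1 was 0.46 higher in PR3_KO (exact two-sided permutation p = 0.1, adjusted p = 0.15 over 6 pairs), and 0.30 higher without PR3_KO 1.

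Vdr, the vitamin D receptor gene, maps to chromosome 15, 97854427 to 97908296 (minus strand). It was at 69.1, 63.7 and 78.0 FPKM in PR3_KO 1, 2 and 3, while WT 1, 2 and 3 had 37.0, 31.6 and 26.1 FPKM. All PR3_KO libraries were above all WT libraries. The mean rose from 31.5 ± 5.46 to 70.3 ± 7.23 FPKM (SD, n = 3 per genotype; log2 difference 1.14, SE 0.14, limma adjusted p = 0.00105). Without each library in turn the difference was 1.01 to 1.26.

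Cyp27b1, at chromosome 10, 127048246 to 127054884 (plus strand), encodes the enzyme that makes calcitriol. It was at 8.62, 8.90 and 7.81 FPKM in PR3_KO 1, 2 and 3, while WT 1, 2 and 3 had 4.0, 1.46 and 4.86 FPKM. WT 2 was the lowest library, and the genotypes did not overlap. The mean rose from 3.44 ± 1.77 to 8.44 ± 0.566 FPKM (SD, n = 3 per genotype; log2 difference 1.18, SE 0.30, limma adjusted p = 0.0127). Leaving out WT 2 lowered the difference to 0.80, still past the threshold (limma adjusted p = 0.00140).

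Cyp24a1, at chromosome 2, 170482957 to 170497145 (minus strand), encodes the calcitriol-degrading enzyme and is a classical target of the vitamin D receptor. Its level was 37.5, 66.1 and 70.7 FPKM in PR3_KO 1, 2 and 3, while WT 1, 2 and 3 had 2.93, 16.5 and 8.99 FPKM. The WT libraries were widely spread, with WT 2 the highest of them, yet all lay below the lowest PR3_KO library. The means were 58.1 ± 18.0 and 9.48 ± 6.80 FPKM (SD, n = 3 per genotype), a 6.13-fold ratio. With each library left out in turn the ratio ran from 4.56-fold (without WT 1) to 9.75-fold (without WT 2). The log2 difference was 2.69 (SE 0.55, 95% interval 1.36 to 4.03, limma adjusted p = 0.00838), rank 4 among all genes tested. With both WT 2 and PR3_KO 3 left out the difference was 3.02 and no longer passed (limma adjusted p = 0.0692).

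The 2 enzymes of calcitriol both rose. PR3_KO 1, 2 and 3 had ratios of Cyp24a1 to Cyp27b1 of 4.35, 7.43 and 9.06, and WT 1, 2 and 3 had ratios of 0.733, 11.3 and 1.85. WT 2 exceeded all PR3_KO libraries, and the genotypes overlapped (log2 ratio 1.51 higher in PR3_KO, exact two-sided permutation p = 0.3, adjusted p = 0.3 over 6 pairs). The difference was 0.80 without WT 1 and 2.39 without WT 2. Vdr and Cyp24a1 both rose, Cyp24a1 by more. The ratio of Vdr to Cyp24a1 was thus lower in PR3_KO, at 1.84, 0.964 and 1.10 against 12.6, 1.91 and 2.90 in WT. The log2 ratio differed by -1.55 (exact two-sided permutation p = 0.1, adjusted p = 0.15 over 6 pairs). WT 1 had by far the highest ratio, and without it the difference was -0.85.

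**Figure D2:**
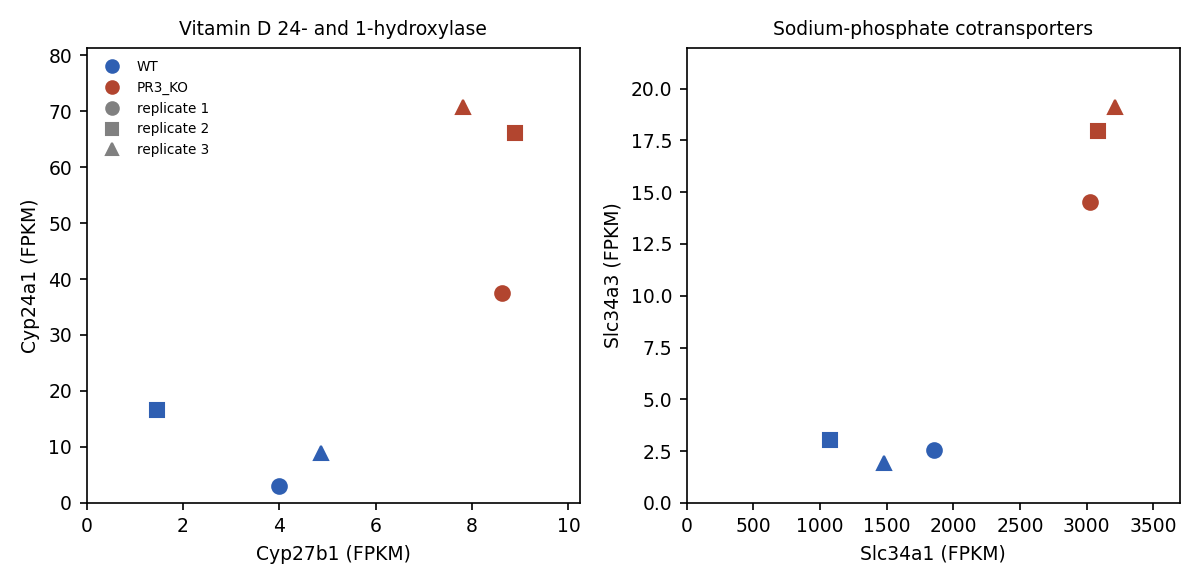
Levels in each library as FPKM on linear axes, Cyp24a1 against Cyp27b1 (left) and Slc34a3 against Slc34a1 (right), with WT in blue and PR3_KO in red and the marker shape giving the replicate number. The genotypes separate on each axis, and WT 2 has the highest Cyp24a1 of the WT libraries (16.5 FPKM) with the lowest Cyp27b1 (1.46 FPKM).

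Kl encodes klotho, a membrane protein of distal and proximal tubule that is also shed into blood, and maps to chromosome 5, 150952607 to 150993817 (plus strand). It was at 99.2, 141 and 119.7 FPKM in PR3_KO 1, 2 and 3, while WT 1, 2 and 3 had 106, 89.2 and 79.3 FPKM. WT 1 was above PR3_KO 1, so the genotypes overlapped. The difference of 0.38 did not pass the test (SE 0.17, 95% interval -0.0017 to 0.77, limma adjusted p = 0.0844). It passed with median-of-ratios scaling (0.71, limma adjusted p = 0.0116) and without WT 1 (0.49, limma adjusted p = 0.0499).

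Fgfr1, at chromosome 8, 25518759 to 25575718 (plus strand), encodes an FGF receptor that binds FGF23 together with klotho and also serves many other FGFs. Its level was 10.54, 12.03 and 11.83 FPKM in PR3_KO 1, 2 and 3, while WT 1, 2 and 3 had 9.81, 12.9 and 9.31 FPKM. The highest value was in WT 2, and the genotypes overlapped. The difference of 0.11 had a 95% interval of -0.20 to 0.41 (limma adjusted p = 0.516), and it passed with median-of-ratios scaling (0.41, limma adjusted p = 0.0146). The ratio of Kl to Fgfr1 ran from 9.41 to 11.8 in PR3_KO and from 6.91 to 10.8 in WT, with overlap (exact two-sided permutation p = 0.3, adjusted p = 0.3 over 6 pairs).

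Pth1r, the parathyroid hormone receptor gene, maps to chromosome 9, 110722085 to 110747145 (minus strand). It was at 327, 342 and 339.7 FPKM in PR3_KO 1, 2 and 3, while WT 1, 2 and 3 had 321, 216 and 262 FPKM. All PR3_KO libraries were above WT 1, the highest WT library, by a small margin. The difference of 0.35 did not pass (SE 0.16, 95% interval -0.02 to 0.73, limma adjusted p = 0.0950). It passed with median-of-ratios scaling (0.68, limma adjusted p = 0.0244) and without WT 1 (0.50, limma adjusted p = 0.0285). Relative to Slc34a1 in the same library, Pth1r was at 10.8%, 11.1% and 10.6% in PR3_KO 1, 2 and 3 and at 17.3%, 20.1% and 17.7% in WT. The shares did not overlap, and the log2 ratio differed by -0.76 (exact two-sided permutation p = 0.1, adjusted p = 0.15 over 6 pairs).

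**Figure D3:**
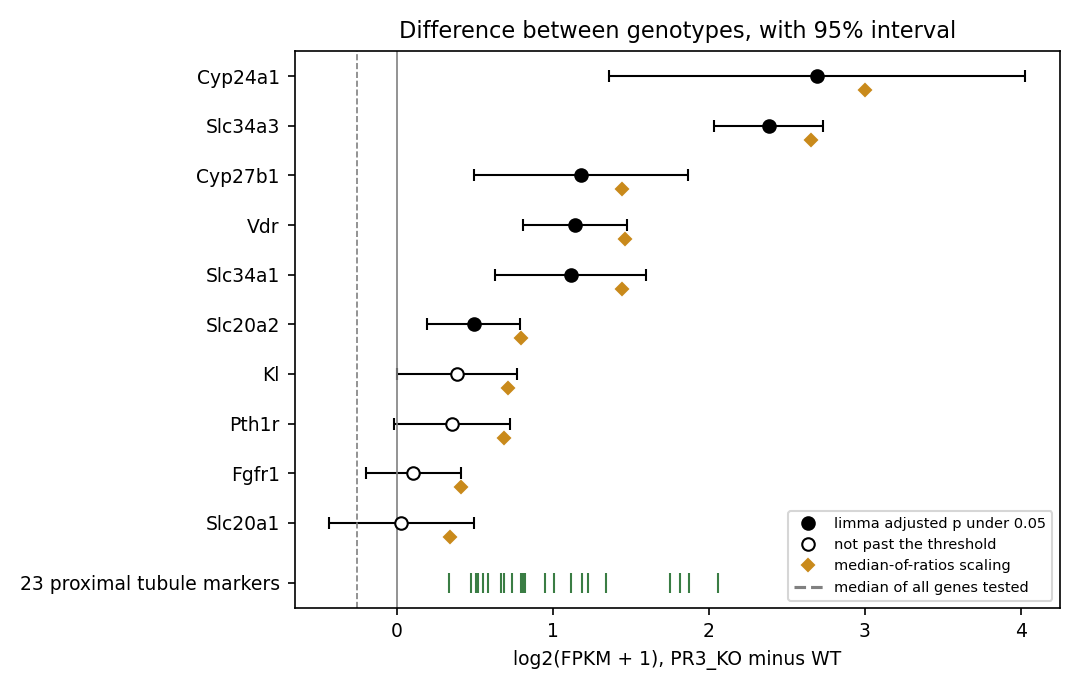
Difference of each gene between genotypes in log2(FPKM + 1), PR3_KO minus WT, with limma's 95% interval; filled circles passed an adjusted p of 0.05, diamonds show median-of-ratios scaling, green ticks are the 23 proximal tubule markers and the dashed line is the median of all genes (-0.26). Cyp24a1 (2.69) and Slc34a3 (2.38) lie to the right of all green ticks, and all diamonds lie to the right of the circles.

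Because FPKM is scaled by transcript length, the 10 genes can be ordered by level. In WT the order was Slc34a1, Pth1r, Kl, Vdr, Slc20a1 and Fgfr1, each with libraries all above those of the next. Below them, Fgfr1, Slc20a2, Cyp24a1, Cyp27b1 and Slc34a3 overlapped, each with its neighbour. In PR3_KO, Slc34a1, Pth1r and Kl again led without overlap. Vdr and Cyp24a1 then overlapped, as did Slc20a1 with Slc34a3 and Slc34a3 with Slc20a2, and Fgfr1 and Cyp27b1 came last. Slc34a3 moved from the last place in WT to the seventh, and Cyp24a1 from the eighth to the fifth.

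The 10 genes were next set against a proximal tubule score, the mean log2(FPKM + 1) of the 23 markers, which hold none of them. PR3_KO 1, 2 and 3 scored 9.15, 9.05 and 9.12, and WT 1, 2 and 3 scored 8.51, 7.65 and 8.21. The mean score was 0.98 higher in PR3_KO, so subtracting it lowers the difference of every gene by that amount. All 10 genes were compared this way, and 3 against 3 libraries cannot give a p below 0.1. Above this score, Slc34a1 lay by 2.41, 2.55 and 2.53 in PR3_KO libraries and by 2.35, 2.42 and 2.32 in WT libraries, which overlapped, with a difference of 0.13 (exact two-sided permutation p = 0.2). Measured this way Slc34a1 tracked the tubule markers closely in all 6 libraries. Cyp27b1 (difference 0.20) and Vdr (0.16) also overlapped between genotypes (exact two-sided permutation p = 0.5 for each). Without WT 2 these were 0.055 for Cyp27b1 and 0.40 for Vdr, and without WT 3 they were 0.40 and -0.015.

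For Slc34a3 minus the score, PR3_KO libraries gave -5.20, -4.80 and -4.79, and WT libraries gave -6.69, -5.64 and -6.66. It was higher in every PR3_KO library, by 1.40 on average (exact two-sided permutation p = 0.1). For Cyp24a1 the difference was 1.71, but WT 2 (-3.52) lay above PR3_KO 1 (-3.88), so the genotypes overlapped (exact two-sided permutation p = 0.2). Without WT 1 the difference was 0.93. The other members were lower in every PR3_KO library than in every WT library on this scale. Their differences were -0.49 for Slc20a2, -0.60 for Kl, -0.63 for Pth1r, -0.88 for Fgfr1 and -0.96 for Slc20a1. Their negative sign follows from the subtraction, since each had a difference under 0.98 as deposited, and it is no separate result. Without WT 2 the values were -0.31 for Slc20a2, -0.38 for Kl and -0.51 for Fgfr1.

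**Figure D4:**
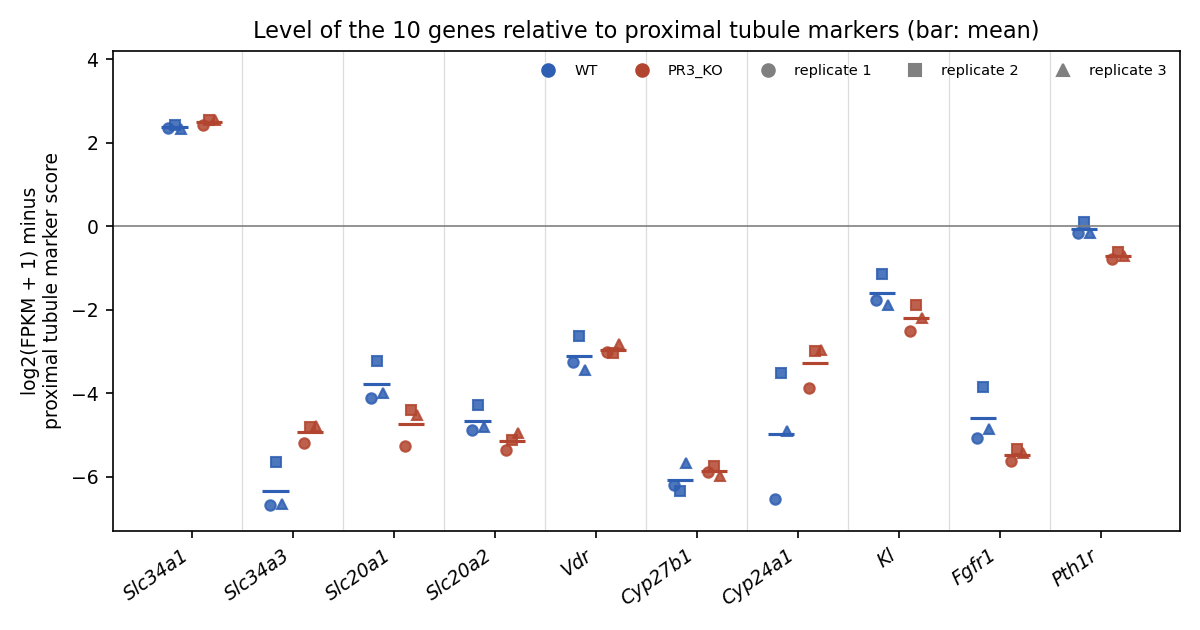
log2(FPKM + 1) of each gene minus the proximal tubule marker score of the same library, with WT in blue, PR3_KO in red, the marker shape giving the replicate number and the bar the mean of 3 libraries. Slc34a1 sits between 2.32 and 2.55 in all 6 libraries, Slc34a3 is higher in all PR3_KO libraries, and Slc20a1, Slc20a2, Kl, Fgfr1 and Pth1r are lower, as the subtraction of a score that is 0.98 higher in PR3_KO makes them.

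The rest of the pathway was read from 5 lists with 85 genes, of which 69 were tested. The counts of each list stand beside 11.7% higher and 41.1% lower over all genes tested as deposited. With median-of-ratios scaling these shares were 25.6% and 22.2%. In the list of phosphate transport and its scaffolds, 5 of 13 tested genes rose and 2 fell, with a median of 0.47, against -0.26 for all genes. With median-of-ratios scaling 8 rose and 2 fell. Alpl, the tissue-nonspecific alkaline phosphatase gene that frees phosphate from its esters, rose from 175 ± 11.4 to 254 ± 14.7 FPKM (SD, n = 3 per genotype; limma adjusted p = 0.00696). Enpp1, whose product makes pyrophosphate outside the cell, rose from 3.00 ± 0.243 to 4.52 ± 0.146 FPKM (limma adjusted p = 0.00858). Ankh, a gene for pyrophosphate and nucleotide release, fell from 6.01 ± 0.902 to 2.89 ± 0.755 FPKM (limma adjusted p = 0.00443).

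The NHERF scaffold genes of the phosphate transport list did not move alike. Slc9a3r2 (NHERF2), which glomerular cells also express, was at 186, 231 and 205 FPKM in PR3_KO and 318, 412 and 418 FPKM in WT, with no overlap (log2 difference -0.88, limma adjusted p = 0.00308). Its related gene Slc9a3r1 (NHERF1) rose by 0.51 (limma adjusted p = 0.0219), and Pdzk1 (NHERF3) was at 0.49 without passing (limma adjusted p = 0.104). These 2 were named after their values were seen. Podocyte markers summed to 405 to 638 FPKM in PR3_KO and 729 to 1177 FPKM in WT, and endothelial markers to 823 to 1151 and 2300 to 2806 FPKM. Their part in the fall of Slc9a3r2 was not tested.

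Of 15 tested genes of vitamin D uptake, activation and receptor partners, 6 rose and 2 fell, with a median of 0.24; with median-of-ratios scaling 9 rose and 0 fell. Gc, which encodes the vitamin D binding protein, rose from 10.6 ± 1.34 to 23.8 ± 4.84 FPKM (SD, n = 3 per genotype; log2 difference 1.09, limma adjusted p = 0.00138). Dab2, an adaptor of the endocytic receptors megalin and cubilin, rose from 104.5 ± 6.36 to 192 ± 11.4 FPKM (limma adjusted p = 0.00107). Cubn, the cubilin gene, rose by 0.78 (limma adjusted p = 0.00460), and so did Cyp27a1, which encodes a mitochondrial sterol hydroxylase able to act on vitamin D (0.78, limma adjusted p = 0.00138). Lrp2 (megalin) and Amn, the other genes that rose, are outside the naming rule and were named after their values were seen. Uptake genes of this list are expressed in the proximal tubule, whose markers were higher in the same libraries. The part of the tubule in these rises was not tested.

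In the list of calcium handling and vitamin D target genes, 0 of 11 tested genes rose and 4 fell, with a median of -0.49; with median-of-ratios scaling 2 fell. These falls were no more frequent than over all genes tested, of which 41.1% fell as deposited and 22.2% with that scaling. Atp2b1, a plasma membrane calcium pump gene, was at 9.90, 10.9 and 10.6 FPKM in PR3_KO and 17.2, 20.1 and 17.3 FPKM in WT (log2 difference -0.74, limma adjusted p = 0.00117). Calb1, which encodes the calcium-binding protein calbindin of the distal tubule, was at 96.5, 169 and 82.9 FPKM in PR3_KO and 171, 203 and 214 FPKM in WT. PR3_KO 2 came close to WT 1. Its fall of 0.81 (limma adjusted p = 0.0284) no longer passed with median-of-ratios scaling (-0.48, limma adjusted p = 0.146). Nor did it pass when PR3_KO 1, PR3_KO 3, WT 2 or WT 3 was dropped (limma adjusted p = 0.0976, 0.0925, 0.0823 and 0.0815). The differences were then -0.72, -0.61, -0.78 and -0.75.

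Atp2b4, a second calcium pump gene of this list, fell by 0.54 (limma adjusted p = 0.0301) and was not past the threshold when PR3_KO 1, PR3_KO 3, WT 1 or WT 2 was dropped (limma adjusted p = 0.0997, 0.0734, 0.0534 and 0.0652) or with median-of-ratios scaling (-0.28, limma adjusted p = 0.136). Ptger4, a prostaglandin receptor gene, fell by 0.95 (limma adjusted p = 0.0201) and lost its call without PR3_KO 1 or PR3_KO 3 (limma adjusted p = 0.0777 and 0.0561). Fewer genes of the list fell without WT 2 as well (2), and only 1 did without PR3_KO 1 or PR3_KO 3. Markers of the loop, distal tubule and collecting duct summed to 747 to 1102 FPKM in PR3_KO and 1098 to 1475 FPKM in WT, and their part was not tested.

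In the list of FGF23 and klotho signalling, 4 of 17 tested genes rose and 9 fell, with a median of -0.38. With median-of-ratios scaling 5 rose and 7 fell. Over all genes tested 11.7% rose and 41.1% fell as deposited, and 25.6% and 22.2% with that scaling. Fgf23 itself was listed at 0 in 5 libraries and at 0.05 FPKM in WT 2. Sgk1, a kinase gene of this list that steroid hormones induce, fell from 419 ± 46.0 to 133 ± 15.4 FPKM (SD, n = 3 per genotype, log2 difference -1.65, SE 0.14, limma adjusted p = 0.000684). Dusp6, a phosphatase gene induced by FGF and other growth factor signals, was at 16.0, 17.1 and 15.8 FPKM in PR3_KO and 33.8, 43.7 and 36.4 FPKM in WT, with no overlap (log2 difference -1.17, limma adjusted p = 0.000735). Adam17 and Adam10, whose proteases can shed klotho from the membrane and are expressed in many cell types, fell by 1.04 and 0.88, with limma adjusted p = 0.000910 and 0.00120. FGF receptor genes of the list differed in direction: Fgfr4 rose by 0.76 and Fgfr3 fell by 0.38 (limma adjusted p = 0.00524 and 0.0246), both named after their values were seen. Only 2 genes of the list rose without PR3_KO 2, PR3_KO 3 or WT 3 in turn.

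In the list of parathyroid hormone signalling, 0 of 13 tested genes rose and 10 fell, with a median of -0.84; with median-of-ratios scaling 1 rose and 8 fell. Arrb2, a beta-arrestin gene, fell from 22.1 ± 4.09 to 7.58 ± 1.32 FPKM (SD, n = 3 per genotype, log2 difference -1.42, limma adjusted p = 0.000853). Creb1, the cyclic AMP response factor gene, was at 3.62, 4.6 and 3.67 FPKM in PR3_KO and 9.09, 11.1 and 10 FPKM in WT (log2 difference -1.16, limma adjusted p = 0.000794). The G protein gene Gnaq and the phospholipase gene Plcb1 fell by 0.99 and 0.96, with limma adjusted p = 0.000773 and 0.000735. These signalling genes serve many receptors and cell types. Macrophage markers summed to 78.2 to 123 FPKM in PR3_KO and 542 to 1114 FPKM in WT beside the endothelial values above, and their part in this list and in that of FGF23 was not tested.

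**Figure D5:**
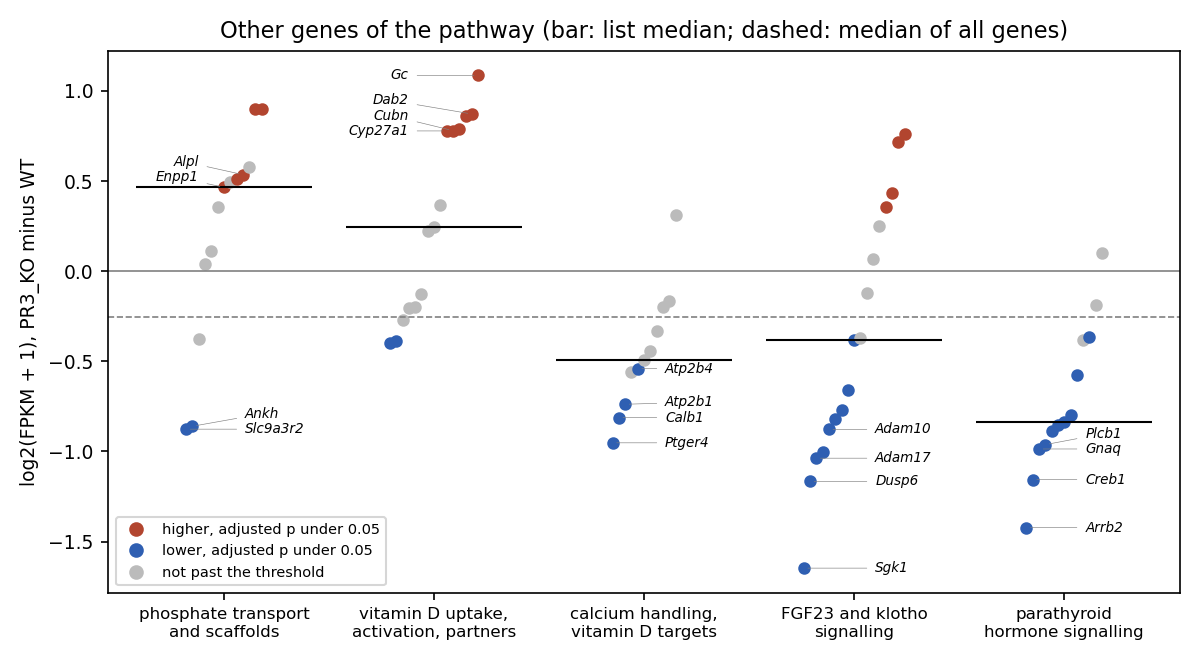
Difference between genotypes in log2(FPKM + 1), PR3_KO minus WT, for each of the 69 tested genes of 5 pathway lists, coloured by the test's call, with the list median as a bar and the median of all genes (-0.26) dashed. Genes that rose lie in the phosphate, vitamin D and FGF23 lists, and genes that fell are most numerous in the parathyroid hormone list (10 of 13); with median-of-ratios scaling the latter were 8 of 13.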

How the data were processed

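Glomerular RNA of 3 PR3_KO and 3 WT libraries was isolated with Trizol and oligo(dT) beads and read on the DNBSEQ platform, per the labels' protocols. Per the submitters' processing notes, Bowtie2 and the build GRCm38.p6 were used; not given in the sources used here were its version, the counter, the annotation and any filter. The authors deposited FPKM to 2 decimals, per the file headers, with no counts. Of 22064 Entrez IDs per file, 3242 were empty in all files, and 18770 of the remaining 18822 matched the RefSeq gene table of GRCm38.p6 (Ankh by its synonym). Abundant transcripts lower the FPKM of all other genes: Kap alone held 1.06% to 9.52% of the sum.

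Main test: limma 3.58.1 (statmod 1.5.0, R 4.3.3), with intensity trend and robust moderation, on log2(FPKM + 1) for 12388 genes averaging 1 FPKM or more, genotype as the only term, Benjamini-Hochberg adjustment over all of them and a threshold of 0.05. The code was tested on simulated data. Single values were compared by exact permutation over libraries. Log2 ratios of gene pairs were taken on FPKM + 1, and the printed ratios and percentages on FPKM. Depth was estimated from the most common low value of 53 olfactory receptor genes, carried by 3 to 7 genes per library, so it is rough.

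The 10 genes and all lists were chosen with earlier results of these data known. Besides the 10 genes, the text names from each pathway list up to 4 genes past the threshold with the smallest adjusted p. The rule also takes the 2 most abundant genes of each marker list, but marker genes are given here only as lists, and some single-gene results are not reported here. Alternatives covered scaling, pseudocount, filter, variance model, replicate block and libraries left out. Of the 85 listed pathway genes, 13 were under the filter and 3 (Bglap, Dmp1 and Pth) had no value in the files. Python 3.11.15, pandas 2.3.3, numpy 2.4.6 and matplotlib 3.10.9 were used.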

Additional observations from a re-analysis of the deposited data

How the results depend on the processing

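The count of 10 axis genes that rose was 6 and ran from 5 to 8 with each library left out in turn; it was 9 with median-of-ratios scaling, 5 of 9 when the most abundant genes (Slc34a1 among them) were left out, and 4 without WT 2 and PR3_KO 3 together. None of the 10 passed as lower in any alternative run. Over the 5 pathway lists together 15 of 69 tested genes rose and 27 fell. With median-of-ratios scaling 23 rose and 19 fell. With each library left out 9 to 17 rose (9 without PR3_KO 3) and 22 to 28 fell. Over all genes tested 11.7% rose and 41.1% fell as deposited, and 25.6% and 22.2% with median-of-ratios scaling. In the phosphate list the number that rose was 5, and 3 and 2 without PR3_KO 1 and PR3_KO 3; the number that fell was 2, and 1 with a mean of at least 5 FPKM. In the vitamin D list 2 fell, and 1 without PR3_KO 1, PR3_KO 3, WT 1, WT 2 or WT 2 and PR3_KO 3 together. In the calcium list 4 fell, and 7 with the replicate block; without WT 2 and PR3_KO 3 together 2 fell and 1 rose. In the FGF23 list 4 rose, and 2 with no filter or without WT 2 and PR3_KO 3. Over all genes 1454 rose and 5091 fell as deposited, 3158 and 2742 with median-of-ratios scaling, and 916 and 936 rose without PR3_KO 1 and PR3_KO 3.

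Slc20a1 had log2 differences from -0.11 to 0.28 with each library left out (-0.11 without PR3_KO 2, -0.08 without PR3_KO 3, -0.04 without WT 3) and -0.039 without WT 2 and PR3_KO 3 together. Vdr relative to the proximal tubule score ran from -0.015 (without WT 3) to 0.401, against 0.156. The cause was not tested. Deviations of same-numbered libraries from their genotype mean correlated at 0.068, 0.27 and -0.087 for numbers 1, 2 and 3. Those of differently numbered libraries correlated at -0.26 to 0.322, so the numbers were not taken as pairs. With the replicate block 6 of the 10 genes rose, as without it, and over all genes 1550 rose and 5143 fell. The depth is known only roughly, so no counting error is given, and genes with a mean under 1 FPKM were outside the main limma test.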
